A study of Drosophila melanogaster with 6 samples.

Results

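The genes described here encode the membrane fusion machinery that works between the endoplasmic reticulum (ER) and the Golgi in the embryo of Drosophila melanogaster. They were taken as the probe sets whose gene symbol in the platform annotation was on a list of 8 names. The list was drawn up with earlier results of these data known. Of the 8 genes, 6 had a probe set, namely Sec20, Membrin, Slh, Sec22, Gos28 and Ykt6. Slh had 2 probe sets, which made 7 probe sets for 6 of 11982 genes measured. Syx5 and Syx18 were not analysed here. The list is labelled as SNAREs, and Slh is the exception, since it encodes an SM protein that acts on SNAREs.

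SNAREs are membrane-anchored proteins that pair across a transport vesicle and its target membrane and draw both together until they fuse. A fusing complex joins several glutamine-type (Q) SNAREs with an arginine-type (R) SNARE, an SM protein binds and guides the assembly, and the ATPase NSF with SNAP proteins takes the spent complex apart. Separate sets serve vesicles that leave the ER in COPII coats and vesicles that return from the Golgi in COPI coats. CrebA is a bZIP transcription factor, and the title of the series names it as a regulator of secretory pathway genes.

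The 6 arrays, of the Affymetrix Drosophila Genome 2.0 type, carried RNA of 3 CrebA null mutant and 3 wild-type embryo samples. Mutant embryos were selected as those without the GFP of the balancer chromosome, and embryos of both genotypes passed through a COPAS biosorter, which sorts intact embryos by size and fluorescence. Collections lasted 8 h and embryos were 11 h older when RNA was taken, and the labels give stages 11 to 15 in one field and 11 to 17 in another. The labels name no strain, no CrebA allele and no number of embryos per sample.

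The labels do not say whether replicates are separate collections, and the p-values therefore reflect no more than the spread of these 6 samples, which could be technical. In each genotype the replicate 2 array stood apart, with scores on the first principal component of 20.12 (mutant) and 53.48 (wild type) against -36.78 to -3.20 for the other 4 arrays. Same-numbered arrays deviated together (r over probe sets of 0.639, 0.852 and 0.563 for replicates 1, 2 and 3). Replicates 1 and 3 also correlated when crossed (0.371 and 0.566), so their pairing is not settled. Each result is also given with the replicate number as a block where that changes the call. Calls made with the block rest on that pairing. CrebA itself was not analysed here, so the genotypes rest on the labels alone. Values are log2 RMA expression, a level of 1 probe set that can be compared between arrays and not between genes. A change is called at a Benjamini-Hochberg adjusted p under 0.05 over all 18769 probe sets in limma.

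The ER SNARE gene Sec20 was lower in CrebA null mutants by 2.31-fold and was the only member called in the fit of all 6 arrays with equal weights, the deposited scaling and no block or filter. Membrin was lower by 2.02-fold and missed the threshold narrowly, and Slh, Sec22 and Gos28 had smaller negative changes. Ykt6 had a change in the opposite direction, 1.5-fold higher in the mutants. With the replicate block Sec20, Membrin, Slh and Sec22 fell, Ykt6 rose and Gos28 was not called.

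**Figure D1:**
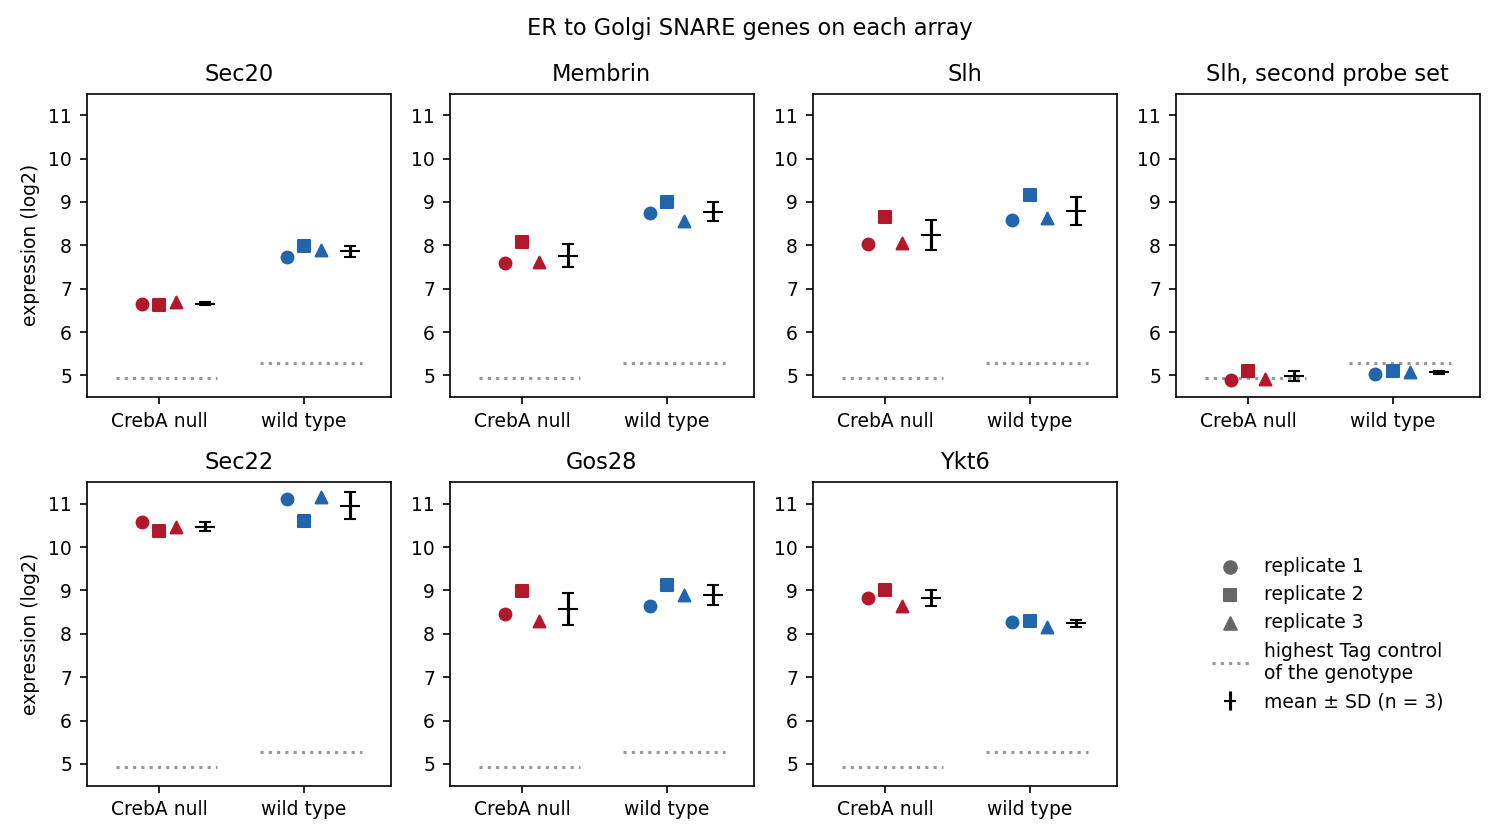
Log2 expression (y axis) of the 7 probe sets in CrebA null and wild-type embryos (x axis). Each symbol is an array, its shape gives the replicate number, black marks are mean ± SD (n = 3) and dotted lines are the highest of the foreign Tag controls in each genotype. Sec20 lies between 6.63 and 6.70 on the mutant arrays, below every wild-type array, and the second Slh probe set lies near the controls in both genotypes.

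As counts, 1 of 6 members fell and 0 rose, against 0.911% of all probe sets called lower and 1.42% called higher. With the replicate block 4 of 6 fell and 1 rose, against 7.15% and 9.53% of all probe sets. Without the replicate 2 arrays 4 fell and 0 rose, against 2.26% and 3.1%. With array weights and no block 4 fell and 1 rose, against 1109 and 1335 of all 18769 probe sets (171 and 267 with equal weights). The median log2 change of the 6 members was -0.51, against -0.02 over 11982 genes with 1 probe set each. Mutant values lay below wild type with no overlap for 3 members and above it for 1, as they did for 10.2% and 8.71% of all probe sets. In all 3 replicate pairs 5 members were lower and 1 was higher in the mutant, as were 28.1% and 21.5% of all probe sets. All 6 members lay above the Tag controls on every array, as did only 9833 of the 18769 probe sets, so these shares include many dim probe sets. Among 11595 probe sets above the Tag controls on at least 3 arrays, 165 were called lower and 249 higher, and 2 members fell and 0 rose.

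Sec20 encodes a Q-SNARE of the ER, which in yeast and mammals receives COPI vesicles coming back from the Golgi together with Syx18, Use1 and Sec22. Its log2 levels were 6.64, 6.63 and 6.70 on the mutant arrays, against 7.72, 7.98 and 7.89 on the wild-type arrays. All mutant arrays were low and nearly equal, with a gap of 1.02 between the genotypes. The mean was 6.65 ± 0.04 in mutants and 7.86 ± 0.13 in wild type (SD, n = 3 each), a change of -1.21 (SE 0.09, 95% interval -1.44 to -0.98, limma adjusted p 0.00641). By size of fall it ranked 108 among 18769 probe sets, and by p-value it ranked 34. The change ran from -1.36 to -1.09 over the 3 replicate pairs and was -1.14 without the replicate 2 arrays (limma adjusted p 0.0106). Without mutant replicate 1 the change was -1.20 and the limma adjusted p 0.06, so the call was lost there.

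Membrin encodes the Q-SNARE that joins the Syx5 complex for vesicles arriving at the cis-Golgi. Its log2 levels were 7.59, 8.07 and 7.62 in mutants, against 8.74, 9.01 and 8.57 in wild type. The genotypes did not overlap, and replicate 2 was the highest array within each. The change was -1.01 (SE 0.18, 95% interval -1.45 to -0.58), with a limma adjusted p of 0.0508. With the replicate block the same change had an SE of 0.08 and a limma adjusted p of 0.0012, and without the replicate 2 arrays the change was -1.05 (limma adjusted p 0.0125). It was called as well with a filter that left out probe sets at the level of the Tag controls (limma adjusted p 0.0446) and with scaling on ribosomal protein genes (0.0397).

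Gos28 encodes the other Q-SNARE measured, which acts with Syx5 within the Golgi stack. Its levels were 8.46, 8.99 and 8.29 in mutants, against 8.65, 9.12 and 8.90 in wild type. The ranges overlapped, since mutant replicate 2 exceeded wild-type replicates 1 and 3. The change of -0.31 (SE 0.21, 95% interval -0.83 to 0.21) was not called (limma adjusted p 0.659, and 0.136 with the block). The interval includes no change as well as a fall as large as that of Slh or Sec22.

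Sec22 and Ykt6 encode the R-SNAREs of the list. Sec22 is anchored by a membrane span and serves traffic in both directions, while Ykt6 is held on membranes by lipid groups, and in yeast Ykt6 can take the place of Sec22 in ER to Golgi fusion. Sec22 had levels of 10.58, 10.36 and 10.47 in mutants, against 11.10, 10.59 and 11.16 in wild type. The genotypes were parted by only 0.014, because wild-type replicate 2 lay at the mutant level. The change was -0.48 (SE 0.17, 95% interval -0.89 to -0.07, limma adjusted p 0.265). With the block the limma adjusted p was 0.0287, and without the replicate 2 arrays the change was -0.61 (limma adjusted p 0.0329).

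Ykt6 had levels of 8.83, 9.01 and 8.64 in mutants, against 8.27, 8.30 and 8.15 in wild type. Every mutant array was above every wild-type array, with a gap of 0.343. The change was 0.59 (SE 0.12, 95% interval 0.30 to 0.87, limma adjusted p 0.067). With the block the limma adjusted p was 0.00577, and without the replicate 2 arrays the change was 0.53 and not called (limma adjusted p 0.0661).

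Slh is the fly counterpart of the SM protein Sly1, which binds syntaxins of the ER and Golgi. Its brighter probe set had levels of 8.02, 8.65 and 8.05 in mutants, against 8.58, 9.16 and 8.62 in wild type. Mutant replicate 2 lay within the wild-type range, yet each mutant array was lower than the wild-type array of its number, by -0.57 to -0.50. The change was -0.55 (SE 0.24, 95% interval -1.12 to 0.03, limma adjusted p 0.393), and the limma adjusted p was 0.00487 with the block and 0.0319 without the replicate 2 arrays. The second probe set of Slh had levels of 4.90, 5.11 and 4.93 in mutants, against 5.03, 5.10 and 5.08 in wild type. These lay near the highest of 17 Tag controls, whose sequences are foreign to the fly (4.71 to 5.28 by array), and the change of -0.09 (SE 0.09) was not called.

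**Figure D2:**
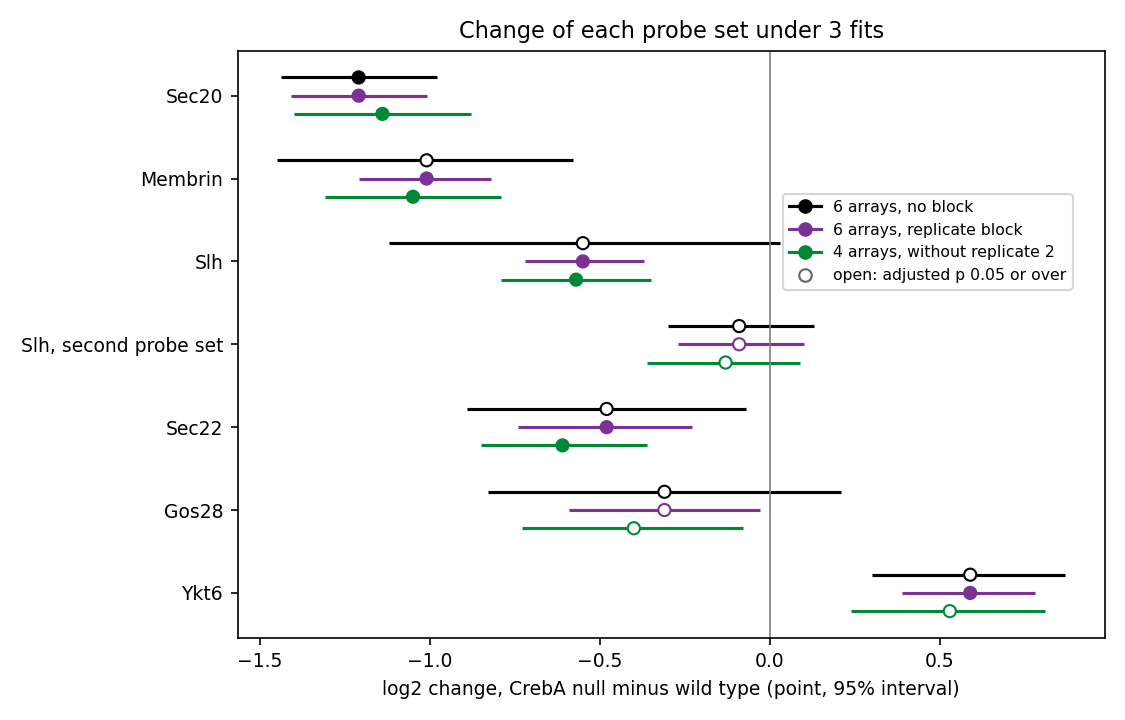
Log2 change, CrebA null minus wild type (x axis), of each probe set (y axis) with its 95% interval, for the fit of 6 arrays, the same fit with the replicate block and the fit of 4 arrays without replicate 2. Filled points have an adjusted p under 0.05. Sec20 is filled in all fits, Membrin, Slh and Sec22 in those with the block or without replicate 2, and Ykt6, at 0.59, only in the fit with the block.

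Members differed in how they varied between replicates. Replicate 2 exceeded the mean of replicates 1 and 3 by 0.62 in mutants and 0.56 in wild type for Slh, and by 0.62 and 0.34 for Gos28. For Membrin it was higher by 0.47 in mutants and 0.36 in wild type. Sec22 went the other way, with -0.16 in mutants and -0.54 in wild type. Sec20 differed by only -0.04 in mutants and 0.18 in wild type, and Ykt6 by 0.27 and 0.08. The SD around the genotype means was 0.097 for Sec20 and 0.341 for Slh, and 25.5% and 81.5% of all probe sets had a smaller SD than these.

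**Figure D3:**
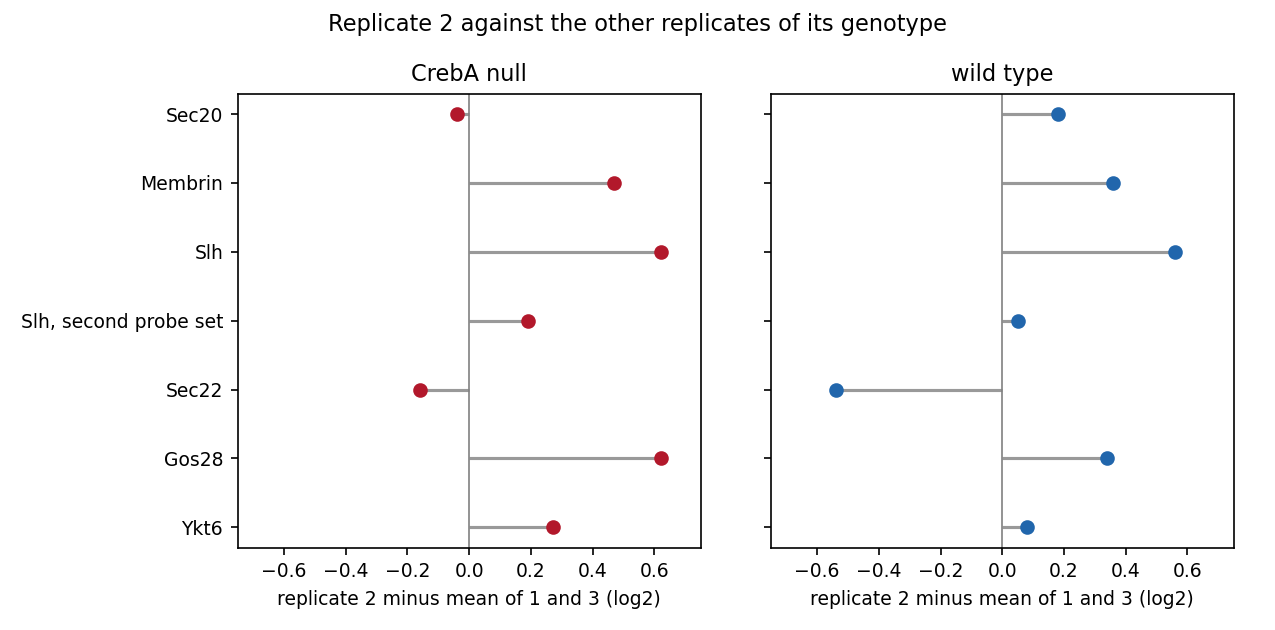
Replicate 2 minus the mean of replicates 1 and 3 (x axis, log2) for each probe set (y axis), in CrebA null embryos at left and wild-type embryos at right. Slh, Gos28 and Membrin lie to the right of 0 in both genotypes, and Sec22 lies to the left, at -0.16 in mutants and -0.54 in wild type.

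Whether members changed unequally was tested on the log2 difference of their probe sets within each array, of which only the shift between genotypes has a meaning. With 3 arrays against 3 the smallest p the exact permutation test allows is 0.1, so no pair could pass 0.05. The pairs with Sec20 were chosen because earlier results of these data showed it to have changed most. The direction of their shifts therefore follows largely from that choice and is no independent evidence. Sec20 minus Ykt6 was -2.20, -2.38 and -1.94 in mutants, against -0.55, -0.31 and -0.26 in wild type, a shift of -1.80 with no overlap (exact permutation test, two-sided, p 0.1, adjusted p 0.125 over 5 pairs with Sec20). Sec20 also shifted against Gos28 by -0.90, against Sec22 by -0.73 and against Slh by -0.66, each with no overlap and the same p. Against Membrin the shift was -0.20, and the genotypes overlapped (exact p 0.6).

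The remaining 10 pairs were added after the values had been seen. The R-SNARE pair, Ykt6 minus Sec22, was -1.74, -1.35 and -1.82 in mutants, against -2.82, -2.29 and -3.01 in wild type. This shift of 1.07 had no overlap (exact permutation test, two-sided, p 0.1, adjusted p 0.167 over these 10 pairs). The Q-SNARE pair, Gos28 minus Membrin, shifted by 0.70 with no overlap and the same p. In all, 10 of 15 pairs, which share 6 genes, had no overlap, as did 24.7% of all pairs of genes on the arrays. Sec22, Gos28 and Slh overlapped in each pair among themselves, with shifts of -0.17 to 0.24.

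The proteins that work beside these SNAREs were read from lists of other genes. Of 5 other SNARE and SNAP genes measured, 0 were called, and with the replicate block 1 fell (median log2 change -0.13). That gene was Use1, the Q-SNARE that joins Sec20 at the ER, with levels of 7.34, 7.13 and 7.14 in mutants, against 7.58, 7.39 and 7.57 in wild type (change -0.31, SE 0.10, limma adjusted p 0.228, and 0.0458 with the block). The gene of the SNARE-recycling factor gammaSnap2 had a change of -0.24 (SE 0.15, limma adjusted p 0.605). Bet1, Nsf2 and comt were not analysed here.

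Of 13 genes of tethers, which hold a vesicle before fusion, 0 were called, and with the block 3 fell and 1 rose (median -0.03). Rint1, a subunit of the ER tether that binds the Sec20 complex in mammals, had levels of 7.32, 7.68 and 7.45 in mutants, against 7.92, 8.40 and 7.92 in wild type (change -0.60, SE 0.17, limma adjusted p 0.169, and 0.00559 with the block). Zw10, a subunit of the same tether named here after its values were seen, had a change of -0.03 (SE 0.19). The Golgi tether gene p115 had a change of -0.57 (SE 0.18, limma adjusted p 0.223, and 0.00745 with the block). With the block the TRAPP subunit genes Trs20 and l(3)76BDm were called too, in opposite directions, with changes of -0.42 and 0.31.

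Among 10 genes of SNAREs and SM proteins of later steps, 1 rose and 0 fell, the same count as with the block (median 0.03). Snap25, a SNARE of synaptic vesicle release, had levels of 7.40, 7.43 and 7.72 in mutants, against 6.49, 6.74 and 6.67 in wild type. It rose by 0.88 (SE 0.12, limma adjusted p 0.0277), and the call was lost in 5 of 6 fits that left out 1 array (limma adjusted p 0.0648 to 0.127). Of 5 neuronal marker genes 0 were called, with brp and para above the Tag controls on only 5 arrays and 1 array. Log2 changes of the 5 neuronal genes ran from -0.09 to 0.27 (median 0.17), with 3 positive and 2 negative. Their summed level was 11.33 to 11.96 in mutants and 11.62 to 12.22 in wild type (log2). That sum rests mostly on fne, with a mean of 11.2 in mutants and 11.29 in wild type. The part of these genes' cells in the rise of Snap25 was not tested. The syntaxins of this list were not analysed here.

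The genes of the vesicle coats that the SNAREs follow were read in the same way. Of 6 genes in the COPII list 1 fell, and 5 with the block (median -0.65). That list holds Sec12 and Sec16, which act at ER exit sites and are not coat subunits. Of 6 COPI coat genes 1 fell, and 6 with the block (median -0.87). The called genes were Sec31, with a change of -0.86 (SE 0.15, limma adjusted p 0.046), and alphaCOP, with -1.08 (SE 0.16, limma adjusted p 0.0323). The call was lost in 6 of 6 fits without 1 array for Sec31 (limma adjusted p 0.0562 to 0.166) and in 5 of 6 for alphaCOP (0.0598 to 0.145). The largest fall in the COPI list was -1.43 for zetaCOP (SE 0.35, limma adjusted p 0.113, and 0.00149 with the block). In the COPII list it was -1.29 for Sec13 (SE 0.31, limma adjusted p 0.111, and 0.000731 with the block). Both changes were larger in size than that of Sec20 (-1.21). Sar1, Sec23 and beta'COP were not analysed here. All 12 changes in the COPII and COPI lists were negative, and the SNARE list held 5 negative and 1 positive. The difference between the lists was not tested.

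**Figure D4:**
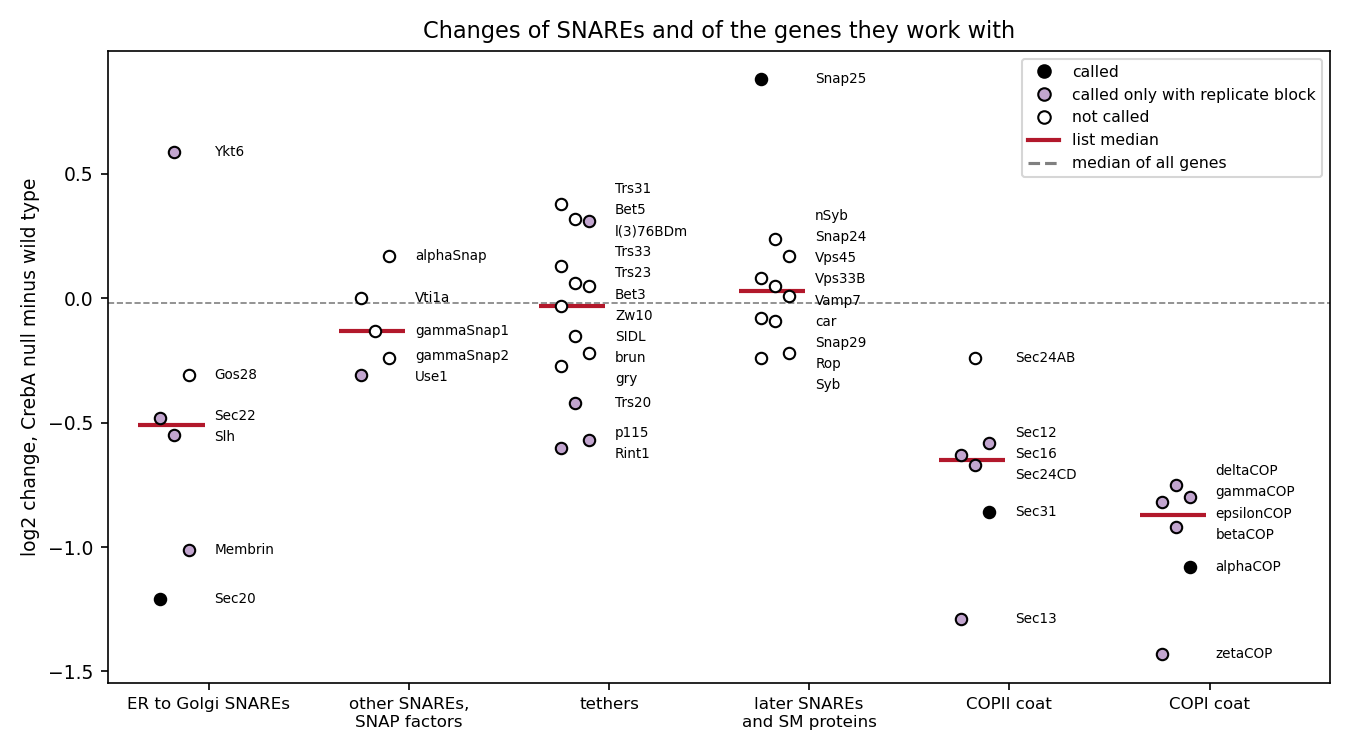
Log2 change, CrebA null minus wild type (y axis), of each gene in the SNARE list and 5 lists of genes that work with it (x axis). Black points are called, purple points only with the replicate block, red lines are list medians and the dashed line is the median of all genes (-0.02). Ykt6 lies at 0.59 while the other 5 members lie between -1.21 and -0.31, and both coat lists lie wholly below 0.

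The nearest profiles to a member were sought among 5554 named genes, by the Euclidean distance of log2 values centred on each gene's mean over the 6 arrays. For Sec20 they were sturkopf (a lipid droplet protein gene, distance 0.297), Pgant6 (a mucin-type O-glycosyltransferase, 0.327) and Zdhhc8 (a palmitoyltransferase, 0.337), against a median distance of 1.59. Their changes were -1.12, -1.07 and -1.28. For Ykt6 they were the peptidase gene SP1029 (0.182), the kinesin-associated gene Kap3 (0.188) and the serpin gene Spn43Ad (0.188), with changes of 0.58, 0.60 and 0.67. For Sec22, whose probe set had the highest mean, they were Dref, a transcription factor gene (0.14), mi (0.151) and the centriole gene Cep135 (0.163). Membrin, Gos28 and Slh were added after the values were seen. The nearest profiles to Membrin were the signal recognition particle gene Srp68 (0.09), the transporter gene MFS18 (0.0903) and alphaCOP (0.113). Those nearest to Gos28 were hng2 (0.12), Taf13 (0.133) and Unc50 (0.146). Those nearest to Slh were hll (0.098), PIG-L (0.132) and r (0.132). The distances describe these 6 arrays and share the genotype difference and the replicate 2 offset.

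Whole embryos hold many tissues, and fewer cells of a type cannot be told apart here from less RNA per cell. Of 9 salivary gland genes 0 were called and 5 fell with the block. Their summed level was 13.81 to 14.50 in mutants and 14.12 to 14.75 in wild type (log2). That sum rests mostly on CG13159 (mean 13.47 in mutants and 13.9 in wild type) and ps (12.04 and 11.92). Log2 changes of these 9 genes ran from -0.97 to 0.12 (median -0.33), with 8 negative and 1 positive. The largest fall was that of the salivary gland transcription factor gene sage, with -0.97 (SE 0.18, limma adjusted p 0.057, and 0.00266 with the block). For fkh the change was -0.25 (SE 0.23), for PH4alphaSG2 -0.01 (SE 0.32) and for ps 0.12 (SE 0.68). The sulfotransferase gene pip of this list, like sage, was chosen after its values were seen. It had 10 probe sets, with changes of -2.06 to -0.14. Of these 3 were called lower, while the brightest, used for the count, was not. With the block all were called lower but the brightest (limma adjusted p 0.0709) and the dimmest (0.295). The dimmest lay below the highest Tag control on every array. Of 4 muscle genes 0 were called and 4 rose with the block, with a summed level of 14.15 to 14.57 in mutants and 13.57 to 14.15 in wild type. All 9 salivary gland, 4 muscle and 5 tracheal genes measured lay above the Tag controls on every array, as did 3 of 5 neuronal genes, 4 of 6 fat body and haemocyte genes and 1 of 3 germline genes. The part of these tissues in the changes of the SNARE genes was not tested.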

How the data were processed

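The authors deposited log2 RMA values for 18952 probe sets, 183 of them Affymetrix controls, from RNA amplified with the 3' IVT Express kit, per the labels' protocols. The tools named are RMA and Partek, per the submitters' processing notes. Versions, roles, filters and genome build are not given in the sources used here. The log base was inferred from the range (2.81 to 14.53). The platform annotation named the other probe sets, of which 13647 had 1 symbol, 402 several and 4720 none, and 13544 were looked up by gene ID in RefSeq (Release 6) with 0 changes. Each gene was read from its probe set with the highest mean.

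CrebA null mutants were set against wild type, 3 arrays each, in limma 3.58.1 (lmFit, eBayes, R 4.3.3), two-sided and with no added normalization or filter. Exact permutation tests of the differences between members used scipy 1.17.1. The limma step was also run on simulated data in which same-numbered replicates shared effects. That run cannot show whether the real replicates are paired. The members, gene lists and tests were chosen with earlier results of these data known. Named genes were all members and, in the 5 lists of SNARE partners, tethers, later SNAREs and coats, every called gene or else the 2 with the largest change. The rule did not cover tissue markers, and other genes outside this rule are said to be so or were called with the block. Replicate numbers come from the sample titles. Deviations from the genotype means correlated between same-numbered arrays (r over probe sets of 0.639, 0.852 and 0.563 for replicates 1, 2 and 3), which set the use of the block beside the results. Replicates 1 and 3 also correlated when crossed (0.371 and 0.566), so their pairing is not settled. Alternatives were the block, a filter on dim probe sets, other scalings and variance models, array weights, another threshold or probe set and leaving out arrays. No sequences were used.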

Additional observations from a re-analysis of the deposited data

How the results depend on the processing

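The calls moved with the arrays that were fitted and with the treatment of replicate 2. Of 16 alternatives run for each member, 5 leave the change as it is by construction, and in the other 11 all 6 members kept their sign. For Sec20, Membrin, Sec22 and Ykt6 the genotypes did not overlap, so leaving out or weighting arrays could not reverse the sign. Gos28 was called in none of the 16. The count of fallen members was 4 with the replicate block, 4 with array weights, 4 without replicate 2 of both genotypes (chosen after seeing the data), and 2 with a filter on probe sets above the Tag controls on at least 3 arrays, with scaling on ribosomal protein genes, or at an adjusted p under 0.1. Without 1 array it was lowest, at 0, when CrebA null mutant replicate 1 was left out, and highest, at 2, when mutant replicate 2 was. The count of risen members was 1 with the block, with array weights and at an adjusted p under 0.1, and 0 without any 1 array. Over all probe sets, main counts of 171 fallen and 267 risen became 1342 and 1788 with the block, 1109 and 1335 with array weights, 424 and 581 without replicate 2 of both genotypes, and 359 and 535 at an adjusted p under 0.1. They ranged from 15 to 121 fallen and from 23 to 159 risen without 1 array, where fewer samples were fitted. The causes of these differences between fits were not tested. Median scaling gave 195 fallen and 204 risen probe sets, with risen ones 51.1% of calls rather than 61.0%. With the block as sign flips over 3 pairs, the exact p of the shift of Sec20 was 0.5 against Membrin and 0.25, the smallest they can give, against each other member. Without 1 array the shifts ran from -1.91 to -1.69 for Ykt6, -0.87 to -0.49 for Sec22, -1.07 to -0.68 for Gos28, -0.29 to -0.03 for Membrin and -0.79 to -0.44 for Slh.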
